A study of Mus musculus with 8 samples.

Results

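The cytochrome P450 genes of families 1 to 4 in mouse primary hepatocytes (MPH) were examined for histone H3 lysine 27 acetylation (H3K27ac), which marks promoters and enhancers in use, after 4 h of endoplasmic reticulum stress (ERS). They were taken as the protein-coding genes of the GENCODE M21 annotation of mm10 whose symbol is Cyp, a family number from 1 to 4, a lower-case letter and digits, which gave 75 of 55450 annotated genes. MPH from male wild-type adult mice (C57BL/6J in the study's methods, C57Bl6 in the labels) were kept in serum-free medium with 1 µM thapsigargin, which blocks the calcium pump of the endoplasmic reticulum, or with 0.04% DMSO, its vehicle. Each treatment had 3 H3K27ac ChIP-seq libraries and 1 library of input DNA, 8 in all. The deposited data are 3 lists of regions in which H3K27ac was higher (UP, 5508 regions) or lower (DOWN, 3376 regions) with thapsigargin or did not pass the authors' test (unchanged, 23312 regions). A gene was given the class of each region that overlaps the transcription start site (TSS) of any of its annotated transcripts. The lists hold no value per library, so a class is a call over the 3 pairs of libraries, and no spread between replicates, fold change or read depth could be computed.

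P450 enzymes are haem proteins of the endoplasmic reticulum membrane that insert an oxygen atom into their substrates with electrons from P450 reductase, and hepatocytes hold most of them. Families 1 to 3 are known for the oxidation of drugs, other foreign compounds and steroids, and family 4 for the hydroxylation of fatty acids. Many of these genes arose by tandem duplication and stand in rows of near copies, and many are induced through nuclear receptors such as PXR, CAR and PPARα or, for the Cyp1 family, through the aryl hydrocarbon receptor. In these cells all 10 of a list of hepatocyte marker genes had a region at a TSS, as had 0 of 6 Kupffer cell and macrophage markers, 2 of 6 sinusoidal endothelial markers (Stab2 and Oit3), 0 of 5 stellate cell markers and 2 of 5 cholangiocyte markers (Sox9 and Spp1).

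Of the 75 P450 genes, 23 had an H3K27ac region at a TSS, which is 30.7% of them beside 44.7% of all 21951 protein-coding genes and 22.2% of all annotated genes. The TSS lay in a DOWN region for 8 genes, in an UP region for 3 and in unchanged regions alone for 12. The remaining 52 had no listed region at a TSS. A gene without a region may still carry H3K27ac, because regions that passed the false discovery rate with bins in both directions are in none of the lists. The 8 genes at DOWN regions were 34.8% of the 23 (95% Wilson interval 18.8% to 55.1%, which covers counting error only), and 8.92% of the 12290 genes of the whole annotation with a region at a TSS were at a DOWN region (8.33% of the protein-coding ones). For UP the shares were 13% of the 23 (4.54% to 32.1%) and 21.3% of the 12290 genes (21.6% of the protein-coding ones). Both intervals take the genes as independent, yet 3 of the 8 DOWN genes share a tandem Cyp2d cluster and 2 share a tandem Cyp3a cluster. Of the 10 hepatocyte marker genes, 4 (40%) had a DOWN and 0 an UP region at a TSS. The 4 DOWN regions were wide, at Apoa1 (14886 bp), Hnf4a (13466 bp), Fgb (10425 bp) and Serpina1a (5608 bp). Only Tat and Ass1 of the 10 markers had a widest region under 5 kb. Of all genes whose widest region is 5 kb or more, 29.7% were at a DOWN region.

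**Figure D1:**
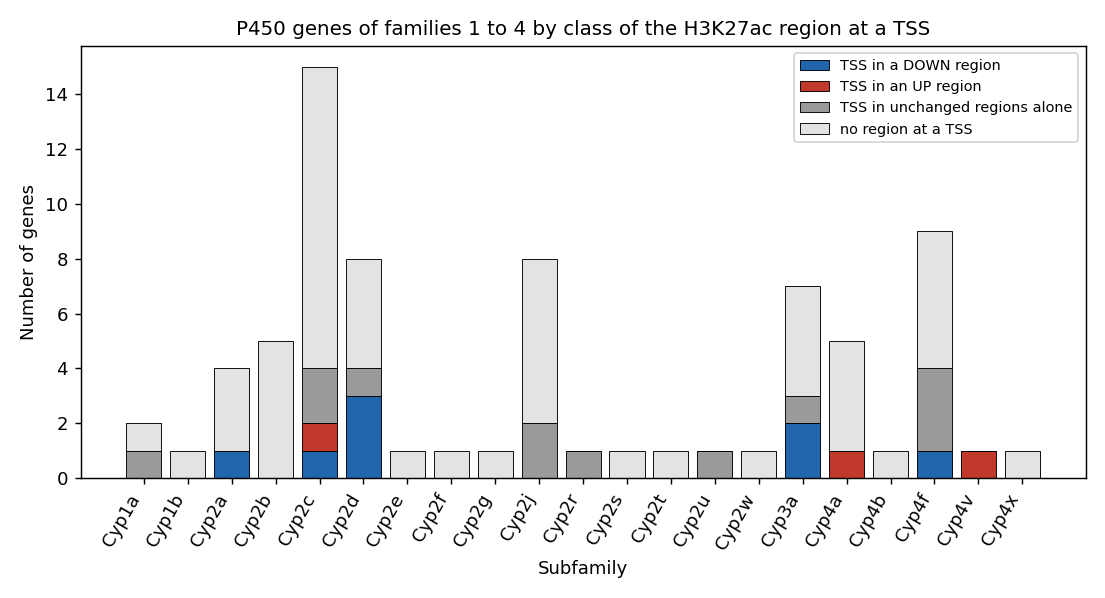
Number of P450 genes (y axis) in each subfamily (x axis), stacked by the class of the H3K27ac region at a TSS. The 8 genes at DOWN regions fall in Cyp2a, Cyp2c, Cyp2d, Cyp3a and Cyp4f, the 3 at UP regions in Cyp2c, Cyp4a and Cyp4v, and the palest parts are the 52 genes with no region at a TSS.

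Width bears on these shares, since wide regions were called more often than narrow ones. Among all genes, a DOWN region was at a TSS of 1.39% of those whose widest region was under 1 kb, 3.42% from 1 to 2 kb, 11.4% from 2 to 5 kb and 29.7% at 5 kb or more. The P450 regions were wide, with a median of 2995 bp for the widest region of each of the 23 genes beside 1850.5 bp over all genes with a region. By width, 0 of 3, 1 of 6, 4 of 9 and 3 of 5 P450 genes were at a DOWN region in these classes, in the same order. An UP region was at a TSS of 11%, 19.7%, 26.2% and 29.1% of all genes by width, and at 0, 1, 1 and 1 P450 genes. All genes weighted to the widths of the 23 would have 12% at a DOWN region and 23.1% at an UP region. The 8 DOWN regions ran from 1667 to 6489 bp with a median of 4277 bp, and 4095 bp was the median over all genes with DOWN regions alone.

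**Figure D2:**
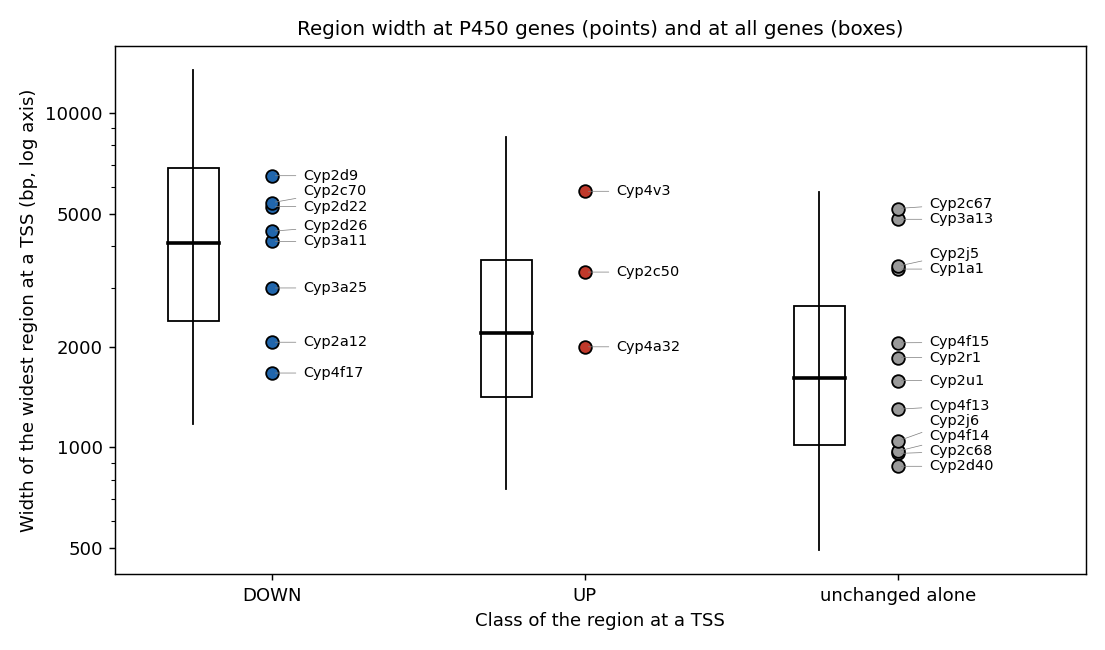
Width in bp (log axis) of the widest region at a TSS of each P450 gene (points), by the class of the region, beside all genes whose regions at TSSs are of that class alone (box, quartiles with the median as a thick line; thin line, 5th to 95th percentile). P450 genes at DOWN regions sit around the all-gene median of 4095 bp, from Cyp4f17 at 1667 bp to Cyp2d9 at 6489 bp, and every P450 gene lies within the 5th to 95th percentile line of its class.

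The Cyp2d subfamily had 3 genes at DOWN regions out of 8. Its human counterpart CYP2D6 oxidizes many drugs. The DOWN region of Cyp2d22 (chr15:82375900-82381144) was 5245 bp wide and held the starts of 4 of its 6 transcripts, with 887 bp upstream and 4357 bp downstream of the TSS. The DOWN region of Cyp2d9 (chr15:82449232-82455720), a gene known for higher expression in male liver, was the widest of all 23 at 6489 bp. It held 8 of the 9 transcript starts and also the TSSs of Gm27622 and Gm49419. The ninth transcript of Cyp2d9 starts upstream of the region, so the gene lost its DOWN class when only the outermost TSS was used. The DOWN region of Cyp2d26 (chr15:82792690-82797115, 4426 bp) held all 4 of its transcript starts and reached 2821 bp upstream. Its neighbour Cyp2d40 was in an unchanged region of 877 bp that ended 35 bp downstream of the TSS, and the start that RefSeq gives, at position 82764122, was outside it. Cyp2d10, Cyp2d11, Cyp2d12 and Cyp2d34 had no region at a TSS.

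In the Cyp3a subfamily, whose enzymes oxidize steroids and a broad range of drugs, 2 of 7 genes were at DOWN regions. Cyp3a11, the main Cyp3a gene of adult mouse liver and a classical target of PXR, lay in a DOWN region of 4128 bp (chr5:145877884-145882011) spread about evenly over the TSS, 2047 bp upstream and 2080 bp downstream. Cyp3a25 lay in a DOWN region of 2995 bp (chr5:146008348-146011342) with 3 of its 4 transcript starts. Cyp3a59 missed by little: a DOWN region of 785 bp ended 206 bp before its TSS. Cyp3a13, which stands apart from the other Cyp3a genes on chromosome 5, lay in an unchanged region of 4806 bp. Cyp3a16, Cyp3a44 and Cyp3a57 had no region at a TSS, and the nearest region of any class was 152129, 72010 and 27685 bp away.

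The Cyp2c subfamily is the largest, with 15 genes, and its enzymes oxidize drugs, steroids and polyunsaturated fatty acids. It was the only subfamily with a gene at a DOWN and a gene at an UP region. Cyp2c70, known for making the muricholic acids that set mouse bile acids apart from human ones, lay in a DOWN region of 5387 bp (chr19:40183505-40188891) with all 4 of its transcript starts. A separate UP region of 1017 bp began 3076 bp from a Cyp2c70 TSS, outside the gene. Cyp2c50, its neighbour, lay in an UP region of 3341 bp (chr19:40088612-40091952) with all 3 transcript starts, and 39402 bp separate both genes. Cyp2c67 was in an unchanged region of 5176 bp and Cyp2c68 in an unchanged region of 958 bp. The other 11 genes had no region at a TSS, among them Cyp2c29, for which the nearest region of any class was 263488 bp away.

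In the Cyp2a subfamily, which holds steroid and coumarin hydroxylases, 1 of 4 genes was at a DOWN region. The DOWN region of Cyp2a12 (chr7:27028425-27030485) was 2061 bp wide. Cyp2a4, Cyp2a5 and Cyp2a22 had no region within 10 kb.

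Family 4 had 1 gene at a DOWN region and 2 at UP regions out of 17. Cyp4f17, of a subfamily that hydroxylates leukotrienes and long-chain fatty acids, lay in the narrowest of the 8 DOWN regions, 1667 bp (chr17:32505810-32507476). Cyp4f13, Cyp4f14 and Cyp4f15 lay in unchanged regions, of which the widest, 2053 bp, was at Cyp4f15. An unchanged region came within 26 bp of the TSS of Cyp4f16. Cyp4a32, of the fatty acid ω-hydroxylases that PPARα induces, lay in an UP region of 1997 bp (chr4:115600482-115602478). The nearby genes Cyp4a10, Cyp4a14 and Cyp4a31 had unchanged regions 3695, 1225 and 404 bp from a TSS. Cyp4v3, an ω-hydroxylase on chromosome 8 outside any tandem cluster, lay in an UP region of 5828 bp (chr8:45328610-45334437), the widest of the 3 UP regions.

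**Figure D3:**
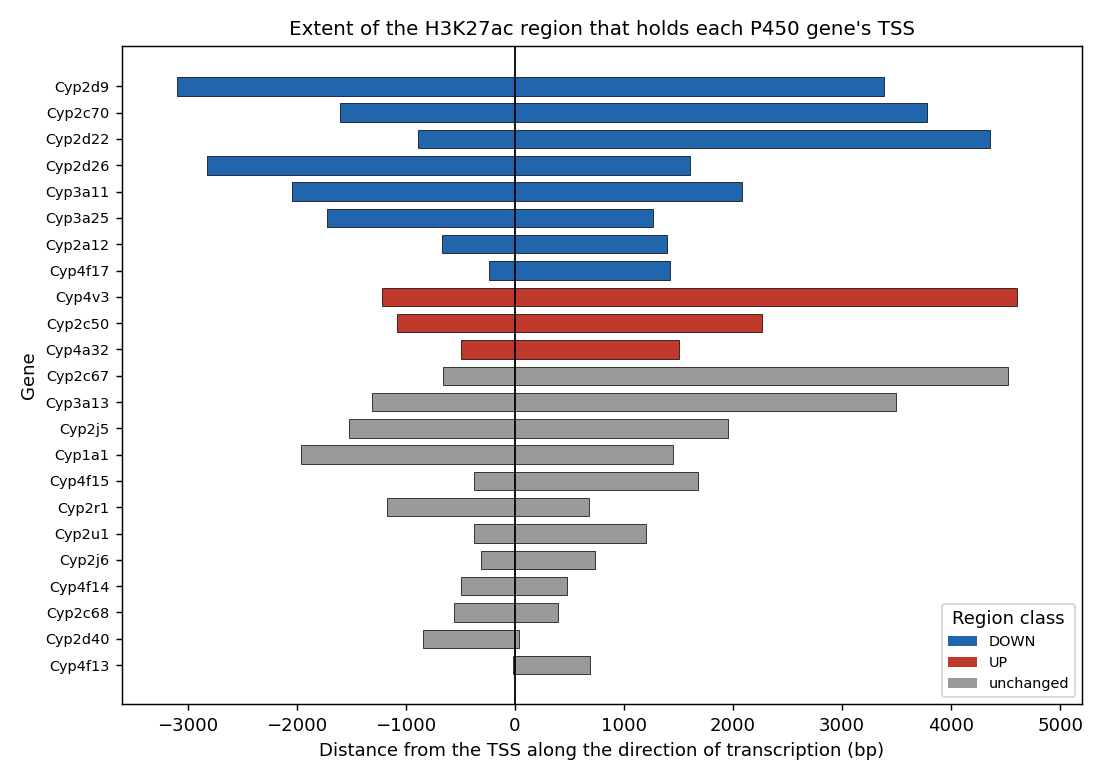
Extent in bp (x axis, along the direction of transcription, TSS at 0) of the region that holds the TSS of each of the 23 genes (y axis), coloured by class; the second unchanged region of Cyp4f13, of 1299 bp, lies at another start and is not drawn. The DOWN regions of Cyp2d9, Cyp2d26 and Cyp3a11 reach over 2 kb upstream, to 3102, 2821 and 2047 bp, and the UP region of Cyp4v3 reaches 4606 bp downstream.

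No gene of the Cyp1 family or of the Cyp2b and Cyp2j subfamilies had a TSS in an UP or DOWN region. Only Cyp1a1, Cyp2j5 and Cyp2j6 among them had a region at a TSS at all. Beside 8.92% of all genes at DOWN and 21.3% at UP regions, so few genes show no lack of changed regions. Cyp1a1, the classical target of the aryl hydrocarbon receptor, lay in an unchanged region of 3411 bp between the divergently transcribed Cyp1a1 and Cyp1a2. That region held the upstream start of Cyp1a1, 1 of its 2 transcripts, and the start at position 57697613 that RefSeq gives was outside it. Cyp1a2, a constitutive liver enzyme that oxidizes caffeine, had its TSS 2262 bp from the nearest region. All 5 Cyp2b genes, known as targets of CAR, were without a region at a TSS, and Cyp2b10 had a DOWN region 12227 bp away. Of the 8 Cyp2j genes, whose enzymes epoxidize arachidonic acid, Cyp2j5 (3478 bp) and Cyp2j6 (1043 bp) were in unchanged regions. Cyp2r1, a vitamin D 25-hydroxylase (1854 bp), and Cyp2u1 (1583 bp) were in unchanged regions as well. The abundant liver genes Cyp2e1, an ethanol-oxidizing enzyme, and Cyp2f2 had an unchanged region 6571 and 49 bp from a TSS. Other subfamilies of 1 gene with no region at a TSS were those of Cyp1b1, Cyp2g1, Cyp2s1, Cyp2t4, Cyp2w1, Cyp4b1 and Cyp4x1.

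Within 10 kb of a TSS, 43 of the 75 genes had a region, 57.3% beside 57.4% of all protein-coding genes. A DOWN region was within 10 kb of 10 of these 43 genes (23.3%, and 14.1% of protein-coding genes with a region within 10 kb), an UP region of 7 (16.3%, and 29%), and both of Cyp2c70 and Cyp4b1. The DOWN count repeats the 8 genes with a DOWN region at a TSS. The genes added to it were Cyp3a59 and Cyp4b1, with the DOWN region 9552 bp from the latter. These 2 were among 20 genes with a region within 10 kb but none at a TSS. The genes added to the UP count were Cyp2c40 at 762 bp, Cyp4b1 at 983 bp, Cyp2c70, and Cyp2w1 at 4212 bp. Just outside 10 kb were Cyp2b10, Cyp2d11 and Cyp4f39, with a DOWN region at 12227, 12878 and 13652 bp. The 70 regions within 10 kb of a P450 TSS were 10 DOWN, 8 UP and 52 unchanged, so 25.7% were UP or DOWN beside 27.6% of all 32196 regions.

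Joined over gaps of at most 200 kb, 66 of the genes formed 12 tandem clusters and 9 stood alone. The clusters with 10 kb on each side held 82 regions, of which 14 were DOWN, 6 UP and 62 unchanged. DOWN was thus 17.1% of the regions in clusters and 10.5% of all regions, and UP was 7.32% and 17.1%. Of the 20 changed regions in clusters, 10 held no P450 TSS. These were 6 DOWN (median width 1267 bp) and 4 UP (1182 bp), beside 52 unchanged regions without a P450 TSS. The other DOWN regions in clusters were the 8 already counted at P450 TSSs. Of 54 adjacent pairs of genes, 5 had a region at both genes, 20 at 1 of them and 29 at neither. Of the 5 pairs, Cyp3a11 and Cyp3a25 were both at DOWN regions, Cyp2c50 and Cyp2c70 at UP and DOWN, Cyp2d26 and Cyp2d40 at DOWN and unchanged, and Cyp4f13 with Cyp4f14 and Cyp2c67 with Cyp2c68 at unchanged regions.

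The clusters differed in their make-up. The Cyp3a cluster around Cyp3a11, of 4 genes over 339 kb, held 5 DOWN, 6 unchanged and 0 UP regions. Besides those at Cyp3a11 and Cyp3a25, its DOWN regions were 940, 884 and 785 bp wide. The Cyp2d cluster of 8 genes over 424 kb held 3 DOWN regions, all at a TSS, 1 UP region of 1758 bp between Cyp2d34 and Cyp2d40, and 15 unchanged regions. The Cyp2c cluster of 14 genes was the longest at 1180 kb and held 1 DOWN, 3 UP and 8 unchanged regions. In the cluster of Cyp4a and Cyp4b1, 5 genes over 162 kb had 2 UP, 1 DOWN and 4 unchanged regions. The Cyp2j cluster of 8 genes over 637 kb had 1 DOWN region of 2169 bp, which held no P450 TSS and lay between Cyp2j9 and Cyp2j5, and 4 unchanged regions. The clusters of 6 and 2 Cyp4f genes had 1 DOWN and 4 unchanged regions, and 3 unchanged regions. The cluster led by Cyp2s1 and Cyp2b10 had 1 DOWN region of 1594 bp and 6 unchanged regions, the cluster with Cyp2a12 and Cyp2f2 had 1 DOWN and 10 unchanged regions, and the Cyp1a pair had 2 unchanged regions. A pair of clusters, Cyp4x1 with Cyp4a29 and Cyp3a57 with Cyp3a16, held 0 regions.

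**Figure D4:**
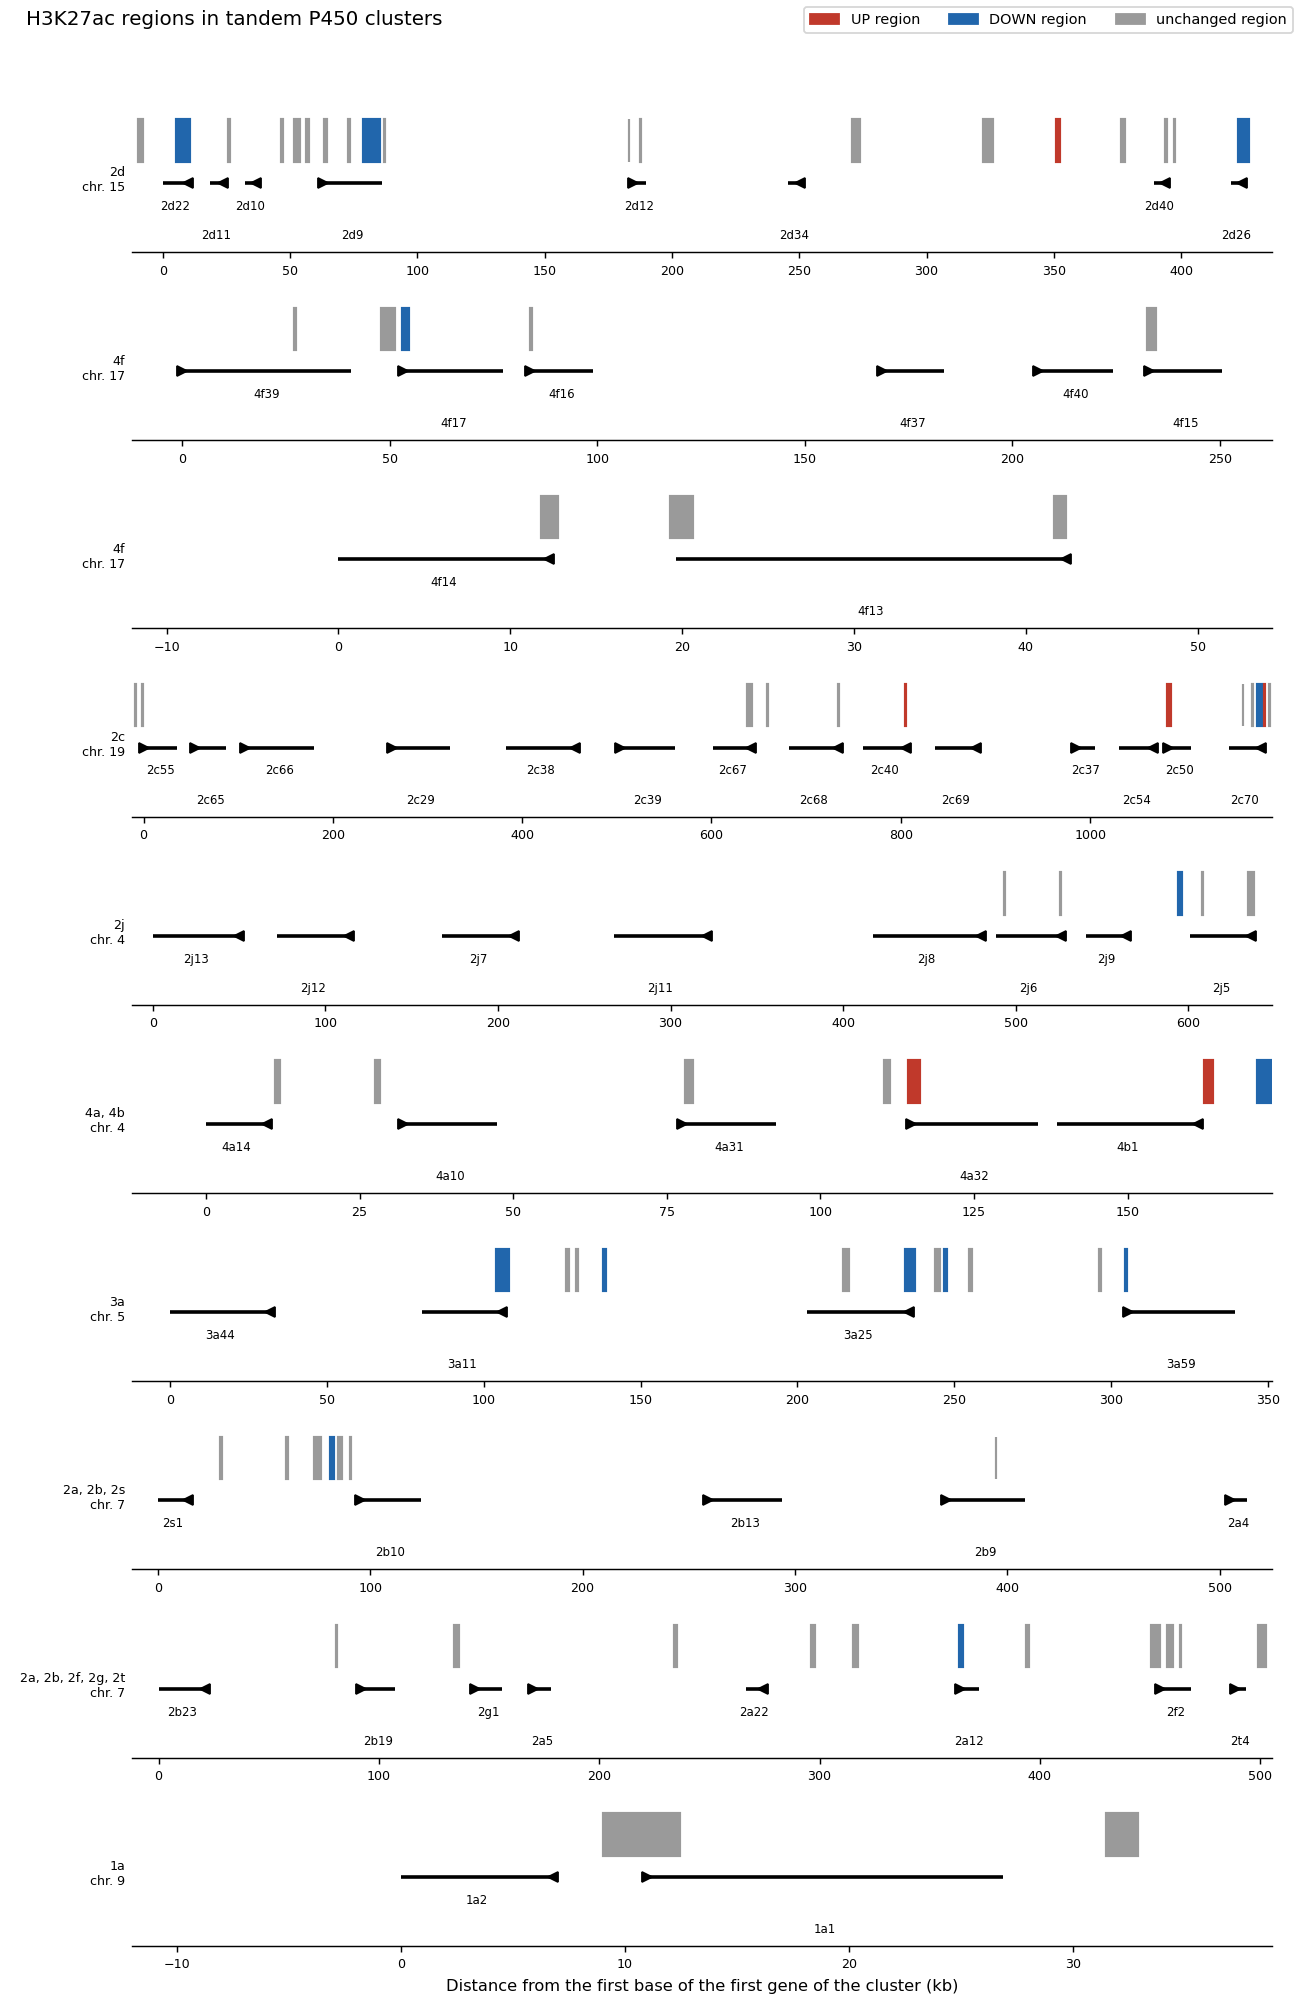
Maps of the 10 tandem clusters that hold regions, as distance in kb from the first base of the first gene (x axis), with regions as blocks coloured by class, genes as black lines, TSSs as arrowheads pointing along transcription, and symbols without the letters Cyp. The Cyp3a map has 5 DOWN blocks and 0 UP blocks, and the Cyp2c map has its changed blocks at Cyp2c40, Cyp2c50 and Cyp2c70.

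Near copies bear on these classes, because reads of 50 bases that match more than 1 place in the genome cannot be assigned to 1 gene, and how the authors treated such reads is not given in the sources used here. Within 500 bp of the outermost TSS, 44 of the 75 genes (58.7%) had at least 1 sampled 50-base word that occurs more than once in the genome, beside 26.5% of protein-coding genes. They were 10 of the 23 genes with a region and 34 of the 52 without. More words were repeated than not at 3 genes, Cyp2c29 (93.8%), Cyp2b13 (56.3%) and Cyp2b9 (54.2%), all without a region at a TSS. These 3 were 4% of the 75 genes, and 5.76% of protein-coding genes had as many repeated words. The window of Cyp2c29 stood at its outermost start, position 39269405, and the start that RefSeq gives, at 39287085, was outside it. With 1 kb on each side the 3 genes were Cyp2c29, Cyp2a4 and Cyp2a5, with Cyp2b13 at 45.4% and Cyp2b9 at 41.3%. At Cyp2e1, Cyp1a2 and Cyp2b10, also without a region at a TSS, 0 words were repeated within 500 bp. The part of repeated sequence in the missing regions was not tested.

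**Figure D5:**
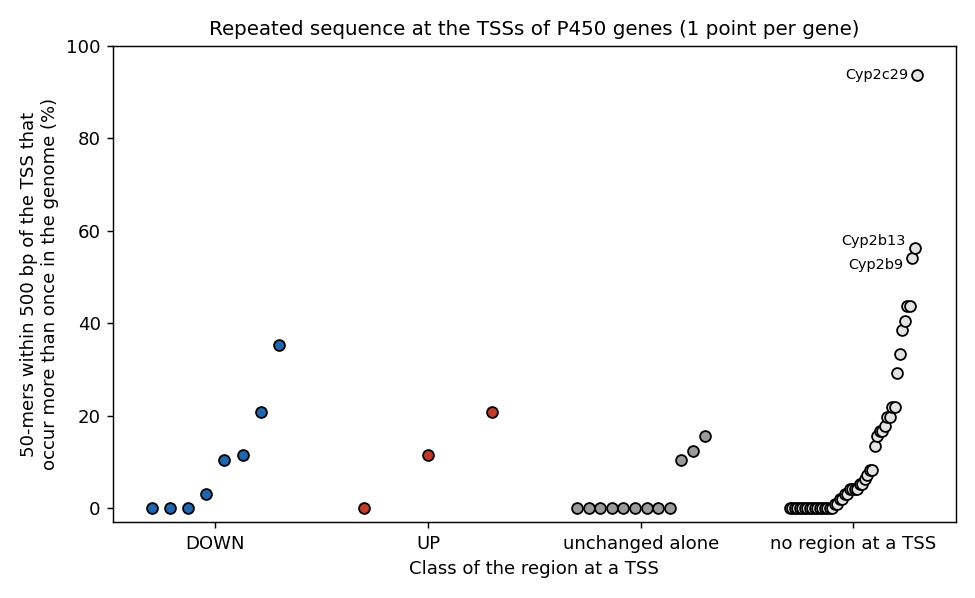
Percentage of sampled 50-base words within 500 bp of the outermost TSS of basic-set transcripts that occur more than once in the mouse genome (y axis), with 1 point per P450 gene, by class of the region at a TSS (x axis). The highest values, 93.8%, 56.3% and 54.2%, belong to genes without a region, and genes at 0 are found in every class.

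Of 220 pairs of promoters within clusters, 9 were identical at 80% or more of aligned positions, and the median was 51.9%. Both genes had a region in 1 of these 9 pairs (Cyp2c67 and Cyp2c68), 1 gene in 4 pairs and neither in 4. The following pairs are printed to show how alike promoters are where 1 gene had a changed region and the other had none. The sequences, 5′ to 3′, are from the RefSeq promoter table of GRCm38.p6 (the mm10 assembly), in which 62 of the 75 genes were found, and end before the gene's start. Capitals mark positions that differ between both genes of a pair.
Cyp3a25 (chr5:146009619-146009817, minus strand): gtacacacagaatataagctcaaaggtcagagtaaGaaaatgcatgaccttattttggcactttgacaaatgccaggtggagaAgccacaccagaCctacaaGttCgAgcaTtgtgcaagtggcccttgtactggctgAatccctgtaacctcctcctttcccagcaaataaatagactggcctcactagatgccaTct
Cyp3a59 (chr5:146079058-146079256, plus strand): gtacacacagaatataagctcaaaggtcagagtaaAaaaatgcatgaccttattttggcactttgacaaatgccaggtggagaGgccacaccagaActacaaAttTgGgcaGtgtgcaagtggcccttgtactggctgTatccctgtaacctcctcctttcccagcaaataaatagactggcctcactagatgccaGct
Cyp2a12 (chr7:27028890-27029078, plus strand): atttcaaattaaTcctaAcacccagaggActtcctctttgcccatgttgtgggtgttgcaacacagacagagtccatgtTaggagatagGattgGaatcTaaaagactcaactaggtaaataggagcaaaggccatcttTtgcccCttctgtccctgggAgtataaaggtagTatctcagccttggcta
Cyp2a22 (chr7:26939387-26939575, minus strand): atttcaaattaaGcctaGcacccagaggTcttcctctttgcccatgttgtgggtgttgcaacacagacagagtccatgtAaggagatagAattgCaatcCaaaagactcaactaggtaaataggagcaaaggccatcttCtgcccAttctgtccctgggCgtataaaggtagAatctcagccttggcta
Cyp2c50 (chr19:40089481-40089678, plus strand): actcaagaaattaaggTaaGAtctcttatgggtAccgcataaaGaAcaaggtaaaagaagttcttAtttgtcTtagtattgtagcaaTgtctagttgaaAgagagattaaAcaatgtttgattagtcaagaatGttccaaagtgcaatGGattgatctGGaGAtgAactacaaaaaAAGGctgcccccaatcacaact
Cyp2c37 (chr19:39992224-39992418, plus strand): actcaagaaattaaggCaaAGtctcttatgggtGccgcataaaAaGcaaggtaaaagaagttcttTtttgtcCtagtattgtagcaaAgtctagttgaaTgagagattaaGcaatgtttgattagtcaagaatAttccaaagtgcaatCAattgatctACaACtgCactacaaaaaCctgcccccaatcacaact

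Cyp3a25, at a DOWN region, and Cyp3a59, with none at its TSS, had 190 identical bases, 9 mismatches and 0 gap bases in the printed stretch. Cyp2a12, at a DOWN region, and Cyp2a22, with none within 10 kb, had 178 identical bases and 11 mismatches. Cyp2c50, at an UP region, and Cyp2c37, with none within 10 kb, had 175 identical bases, 20 mismatches and 3 gap bases.

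Letters bound by liver factors were searched on both strands from 250 bases before to 50 after the outermost TSS of basic-set transcripts. HNF4 words (CAAAGTCCA or CAAAGTTCA) were in 10 of the 75 promoters (13.3%) and in 0.82% of 21938 protein-coding promoters. Of the 10 genes, 6 were Cyp2c genes, 2 were Cyp4a genes and 2 were Cyp3a genes. By class, 2 were at DOWN regions (Cyp2c70 and Cyp3a11), 0 at UP regions, 2 at unchanged regions (Cyp2c67 and Cyp2c68) and 6 had no region at a TSS. Several of the 10 promoters were alike. Cyp2c40 and Cyp2c69 were identical at 99% of aligned positions, Cyp2c67 and Cyp2c68 at 86.5%, and Cyp4a10 and Cyp4a31 at 77.7%. The shares for all words count related genes singly, so they do not count separate occurrences. C/EBP words (TTGCGCAA or TTGCACAA) were in 4 promoters (5.33% beside 1.14%), one of them Cyp3a25. D-box words (TTATGNAA or TTACGNAA), which PAR-bZIP factors and NFIL3 bind, were in 6 (8% beside 3.76%), all of Cyp2a, Cyp2b or Cyp2g1 without a region at a TSS. AP-1 words (TGAGTCA) were in 7 (9.33% beside 4.45%). The words for DR1, DR4 and ER6, which are pairs of nuclear receptor half-sites, the xenobiotic response element (TTGCGTG), ATF4/CHOP (TGATGCAAT) and the ERS response element were in 0 of the 75. In the same order, they were in 0.0501%, 0.0137%, 0.00456%, 1.38%, 0.214% and 0.114% of all protein-coding promoters. At such low shares, 0 among 75 promoters shows no lack of these words. At Cyp1a1 the searched window stood at position 57687928, and the RefSeq start at 57697613 was outside it.

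The upstream sequences of 6 genes with a region are printed to show where these words stand in genes of each class, with HNF4 and C/EBP words in capitals. Each is 150 bases that end before the first annotated start, except for Cyp3a11, where the word covers the first bases of its longer transcript and ends the stretch.
Cyp2c70 (chr19:40187334-40187483, minus strand): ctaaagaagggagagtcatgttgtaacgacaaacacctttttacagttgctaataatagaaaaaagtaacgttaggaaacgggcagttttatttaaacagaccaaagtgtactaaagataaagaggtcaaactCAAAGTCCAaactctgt
Cyp3a11 (chr5:145879955-145880104, minus strand): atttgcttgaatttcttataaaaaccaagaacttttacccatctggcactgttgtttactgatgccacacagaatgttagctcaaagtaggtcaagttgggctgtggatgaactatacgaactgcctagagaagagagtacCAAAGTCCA
Cyp3a25 (chr5:146009619-146009768, minus strand): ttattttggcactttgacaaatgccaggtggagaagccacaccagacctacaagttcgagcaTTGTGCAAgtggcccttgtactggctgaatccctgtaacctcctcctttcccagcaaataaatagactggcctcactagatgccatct
Cyp4v3 (chr8:45333217-45333366, minus strand): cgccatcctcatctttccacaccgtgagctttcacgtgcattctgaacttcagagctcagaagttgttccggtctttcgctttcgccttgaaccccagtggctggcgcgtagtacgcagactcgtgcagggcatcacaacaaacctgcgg
Cyp2c67 (chr19:39649052-39649201, minus strand): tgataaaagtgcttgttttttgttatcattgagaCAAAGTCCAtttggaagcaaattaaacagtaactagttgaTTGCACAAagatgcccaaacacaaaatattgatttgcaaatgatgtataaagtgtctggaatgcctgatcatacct
Cyp2c68 (chr19:39741102-39741251, minus strand): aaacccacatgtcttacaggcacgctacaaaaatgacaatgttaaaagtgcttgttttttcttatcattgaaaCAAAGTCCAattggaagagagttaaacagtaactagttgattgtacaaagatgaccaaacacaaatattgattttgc

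The HNF4 word was the same, CAAAGTCCA, in the DOWN genes Cyp2c70 and Cyp3a11 and in the unchanged genes Cyp2c67 and Cyp2c68. The first base of the word was 64, 109, 125 and 77 bases before the RefSeq start in these 4 genes. The UP gene Cyp4v3 had neither word in the stretch shown.

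Among 25 genes for regulators of P450 genes, 23 had a region at a TSS, of which 7 (30.4%) had a DOWN and 4 (17.4%) an UP region, beside the 8.92% and 21.3% of all genes. DOWN regions were at Nr1i2 (PXR, 16806 bp), Nr1h4 (FXR, 12673 bp), Hnf4a (13466 bp), Foxa1, Foxa2, Onecut1 and Nfe2l2. Nr1h4 had an unchanged region at another TSS. UP regions were at Rxra, the partner of PXR, CAR and PPARα, at Cebpb, Tef and Nfil3. Rxra (UP region of 6016 bp) also had 2 unchanged regions at TSSs, the wider of 15844 bp, and Tef had 1. Nr1i3 (CAR), Ppara, Ahr, Arnt, Cebpa and Dbp were among the 12 in unchanged regions alone. The DOWN regions at these 7 genes were all 5 kb or more wide, and 29.7% of all genes that wide were at a DOWN region. The 30.4% is not a like share, because it also takes in regulators with narrower regions. Those were Nr1i3, Nr0b2, Dbp, Tef, Hlf and Nr3c1, none of them at a DOWN region.

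Among 16 genes that supply P450 enzymes with haem and electrons, 14 had a region at a TSS, 2 of them (14.3%) a DOWN and 6 (42.9%) an UP region, beside the same 8.92% and 21.3%. Alas1, which makes the first haem precursor, had a DOWN region of 2761 bp and 2 unchanged regions at its TSSs. Por, the P450 reductase, had a region of each class at different TSSs, the UP region being the widest at 8845 bp. The other UP regions were at Cyb5a (28188 bp), Cyb5b, Pgrmc2, Cpox and Hmox1, the haem oxygenase, where the region was 9923 bp wide. Several of these regions were wide too, and 29.1% of all genes whose widest region is 5 kb or more were at an UP region. The 42.9% is not a like share, because it takes in genes of every width. At 5 kb or more, Por, Cyb5a and Hmox1 had an UP region, and Pgrmc1 and Fech were in unchanged regions alone.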

How the data were processed

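H3K27ac ChIP-seq of MPH was analysed from 3 region lists. The authors mapped single-end reads with Bowtie to mm10, called broad peaks with MACS2 on pooled libraries against input, and tested bins of 150 bp with csaw, paired by preparation. They called regions UP or DOWN at a false discovery rate of at most 0.05 when bins of one direction outnumbered the other by a factor of 2 or more. The deposited values are positions in base pairs, with no counts, so depth per library is unknown here. In the code supplied with the study, the treatment factor lists thapsigargin first, which would give vehicle relative to thapsigargin. The lists were read as named. The ERS genes Hspa5, Ddit3, Herpud1 and Hsp90b1, chosen after the data were seen, all had an UP region at a TSS, beside 21.3% of all genes with a region. The paper reports that ERS-induced genes were enriched among genes linked to UP regions. It also reports that ERS-repressed genes were linked more strongly to DOWN regions.

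Regions were joined to GENCODE M21 with Python 3.11.15 and numpy 2.4.6. Genes with a region at any TSS were counted by class beside all genes, by width class and within 10 kb. Named were the genes at UP or DOWN regions, the gene with the widest region in each cluster, and genes without regions by cluster. The genes that lie just inside and just outside 10 kb were named too. Words of 50 bases were sampled every 10 bp and matched exactly to 21 chromosomes on both strands. Promoters were aligned with biopython 1.88. The scripts were tested on simulated regions, clusters and sequences. Some listed genes and words are not reported here. The genes and lists were chosen with earlier results of these data known. No test was run, because every class is a single call for the series. The alternatives were other TSS sets, distances, widths, cluster gaps and windows.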

Additional observations from a re-analysis of the deposited data

How the results depend on the processing

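With regions within 10 kb counted, 7 genes were at UP regions, 28 at unchanged regions alone and 32 at none. With regions required to span a TSS and its flanks of 500 bp, 5 genes were left at unchanged regions alone. The share of all genes at DOWN regions was 8.33% over protein-coding genes, and by widest region it was 1.39%, 3.42%, 11.4% and 29.7% (under 1 kb, 1 to 2, 2 to 5, and 5 kb or more). For UP it was 11%, 19.7%, 26.2% and 29.1%. The count of P450 genes at DOWN regions was 7 with the outermost TSS alone, 10 within 10 kb, and 8 under the other TSS and width settings. With gaps of at most 50 or 500 kb there were 16 or 8 tandem clusters. At the outermost TSS of basic-set transcripts, a setting chosen after seeing the data, 44 genes again had repeated words, and with 1 kb on each side 59 (78.7% beside 45.1% of protein-coding genes). With 500 bp on each side, D-box and AP-1 words were in 12 (16%) and 11 (14.7%) genes, beside 11.9% of all promoters for each, and HNF4 words in 15 (20% beside 2.72%). No paired analysis was possible because the lists hold no value per library, and leaving out each replicate was not run for the same reason. Exact matching of 50-base words counts only identical copies and gives a lower bound on reads that cannot be assigned.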

Other observations

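P450 genes of the other families were taken as protein-coding symbols of Cyp, a number of 5 or more, letters and digits. P450 genes with symbols of another form were not counted. The 18 genes found, most of which act on sterols, bile acids, steroid hormones or vitamins, had a region at a TSS in 6 cases. None of these was DOWN: 1 was UP (Cyp20a1, 1648 bp) and 5 were unchanged alone. The unchanged ones were Cyp27a1 (4232 bp), Cyp39a1 (6360 bp), Cyp7b1 (2624 bp) and Cyp8b1 (3995 bp), enzymes of bile acid synthesis, and Cyp21a1 (983 bp), the steroid 21-hydroxylase. Cyp7a1, the rate-limiting enzyme of bile acid synthesis, had no region at a TSS and 1 UP region within 10 kb. Of the 6 genes with a region, Cyp8b1 had 1 UP and 1 DOWN region within 10 kb, Cyp21a1 had 1 DOWN and Cyp7b1 had 1 UP. Those with an UP region within 10 kb but none at a TSS were Cyp27b1, Cyp24a1 and Cyp7a1. With 6 genes, no difference in share from families 1 to 4 was read from these counts.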
